A study of Mus musculus with 6 samples.

Results

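The HSP70 chaperone family was examined in adult mouse testis through 10 genes: Hspa1a, Hspa1b, Hspa1l, Hspa2, Hspa4, Hspa4l, Hspa5, Hspa8, Hspa9 and Hspa14. Its members were taken by name, as every probe set annotated to 1 of these genes alone under its current or an older symbol. That gave 30 probe sets of the 45037 tested, and 10 genes of the 18193 that have a probe set of their own. RNA of whole testes, dissected fresh from adults, went onto 1 Affymetrix mouse expression array for each of 3 wild-type and 3 transgenic samples, independent biological replicates by the submitters' account. Every animal was a C57BL/6 x CBA hybrid, and the transgenic group carries a constitutively active mutant of DREAM. DREAM (KChIP3, from the gene Kcnip3) is a transcriptional repressor that calcium releases from DNA. The promoter that drives the transgene, the number of founder lines and the exact ages are not given in the sources used here.

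HSP70 proteins bind unfolded stretches of other proteins and release them in a cycle driven by ATP. J-domain (DNAJ) co-chaperones deliver the client and start ATP hydrolysis, and nucleotide exchange factors reset the cycle. Mammals make stress-induced, constitutive, endoplasmic reticulum and mitochondrial forms, and male germ cells add forms of their own. Hspa2 is made from meiotic prophase onward and male mice without it are infertile, while Hspa1l is made in spermatids and Hspa4l is abundant in developing germ cells.

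The deposited values are log2 intensities, whose median per array ran from 5.99 to 6.08. The 10 elongating spermatid marker genes, protamines (Prm1 and Prm2) and transition proteins (Tnp1 and Tnp2) among them, averaged 13.47 to 13.51 per array, so the labelled tissue carried its defining transcripts. Wild type replicate 2 stood apart on the first principal component, at 42.2 against -23.3 to 5.27 in the other arrays. The brighter Kcnip3 probe set read 7.11 to 7.33 in wild-type and 7.15 to 7.36 in transgenic arrays, so these values do not check the genotype labels. No source here says whether the transgene's transcript matches that probe set. RNA integrity was read from Gapdh, as its 3' signal less its 5' signal: 0.11 ± 0.05 for wild type against 0.27 ± 0.06 for transgenic arrays (log2, SD, n = 3; two-sided exact permutation p = 0.1, the smallest possible). The same reading from beta-actin was 0.47 ± 0.05 and 0.50 ± 0.03 (exact permutation p = 0.7), so the groups were apart by one measure and not by the other. In whole testis, fewer cells of a type and less RNA per cell cannot be told apart.

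No member of the family passed the test between transgenic and wild-type testis. Of the 30 probe sets, 0 had an adjusted p under 0.05 (limma), where 200 of all 45037 did (0.444%, 0.171% higher and 0.273% lower in transgenic testis). An unadjusted p under 0.05 was reached by 1, a probe set of Hspa4l, against 6.69% of all probe sets. It was lower in transgenic testis (2.94% of all were), and 0 were higher (3.75% of all were). The differences of the members, transgenic minus wild type, ran from -0.24 to 0.20 on the log2 scale with a median of -0.01, beside a median of 0.02 over all probe sets. Of them 14 lay above 0 (46.7%, against 56.5% of all probe sets). Their 95% intervals stayed within 1.5-fold either way for 28 of the 30 (93.7% of all probe sets did) and within 2-fold for all 30 (99.4% did). The exceptions to the first limit were 1 probe set each of Hspa1b and Hspa4. The bounds reached farthest at 1.67-fold lower and 1.39-fold higher. The groups did not overlap in 4 of the 30 (13.3%, against 11.3% of all probe sets), 3 of them lower (4.95% of all were) and 1 higher (6.35% of all were) in transgenic testis. The plot of the 30 differences shows these intervals.

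**Figure D1:**
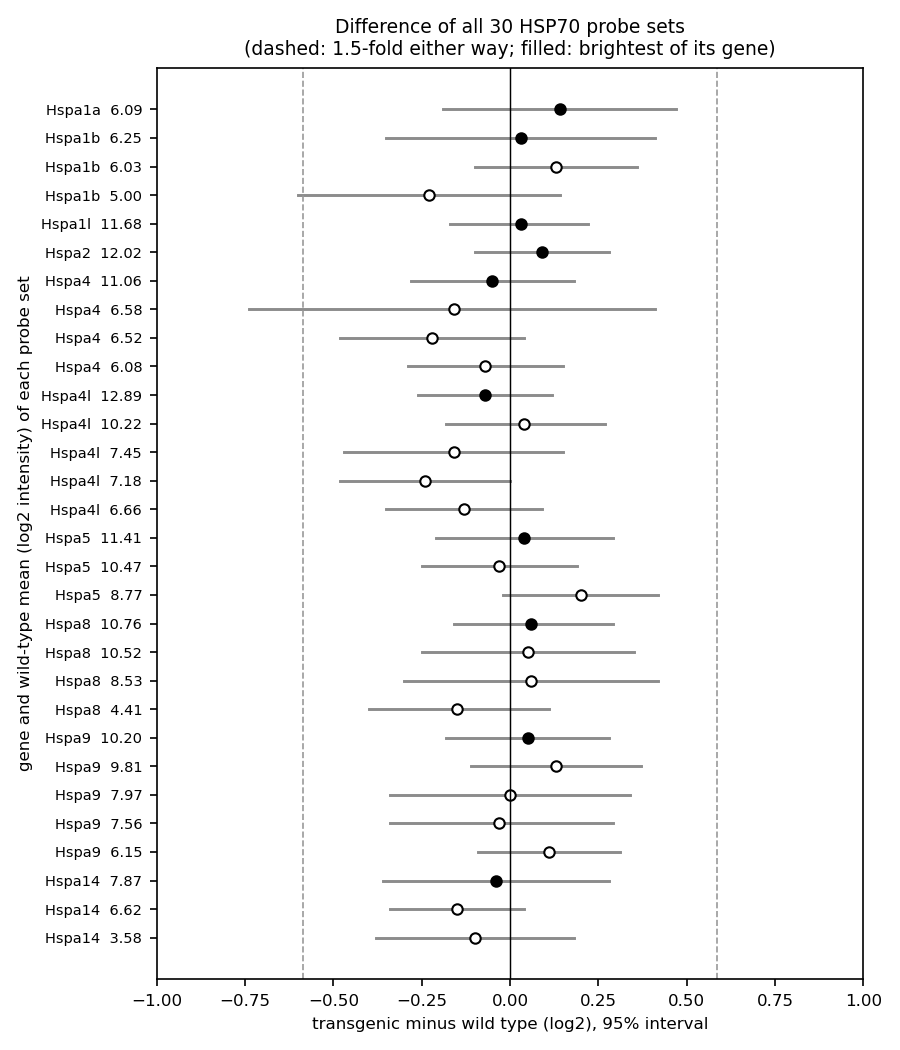
Difference between transgenic and wild-type testis for each of the 30 HSP70 probe sets, in log2 units on the horizontal axis, with 95% limma intervals as bars. Each line is named by gene and wild-type mean log2 intensity, filled points mark the brightest probe set of a gene, and dashed lines mark 1.5-fold. Points run from -0.24 to 0.20, and only 1 interval each of Hspa1b and Hspa4 crosses a dashed line.

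Among the germ-cell members, Hspa2, the chaperone that spermatocytes need to complete the meiotic divisions, has 1 probe set (1417101_at, chromosome 12). It read 11.97, 12.07 and 12.01 in the wild-type arrays and 12.14, 12.06 and 12.12 in the transgenic arrays. Transgenic replicate 2 lay just below wild type replicate 2, so the groups overlapped. The difference was 0.09 (SE 0.08, adjusted p = 0.946), and its 95% interval, from -0.10 to 0.28, corresponds to ratios of 0.932 to 1.22. Without wild type replicate 2 it was 0.12 (adjusted p = 0.678). The 10 spermatocyte marker genes, in 12 probe sets, lay below 0 in 9 with a median of -0.11, and 0 were called. Their mean level, over the brightest probe set of each gene, ran from 10.02 to 10.14 in wild-type and from 9.88 to 9.96 in transgenic arrays. The part of that level in the Hspa2 value was not tested.

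Hspa1l, the constitutive form of spermatids, also has 1 probe set (1419625_at, chromosome 17). Its values were 11.62, 11.75 and 11.67 in wild-type and 11.76, 11.68 and 11.68 in transgenic arrays. The groups overlapped, with the highest array transgenic and the lowest wild type. The difference was 0.03 (SE 0.09, adjusted p = 0.987, 95% interval -0.17 to 0.22). Round spermatid markers, 10 genes in 14 probe sets, had a median of 0.00 and 0 calls, with mean levels of 10.73 to 10.76 in wild-type and 10.63 to 10.77 in transgenic arrays.

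Hspa4l (chromosome 3), an HSP110-type relative that serves HSP70 as a nucleotide exchange factor, has 5 probe sets, which did not all read alike. The brightest (1418253_a_at) read 12.92, 12.89 and 12.87 in wild-type and 12.85, 12.83 and 12.79 in transgenic arrays. Every transgenic array lay below every wild-type array, by a small margin. Its difference was -0.07 (SE 0.08, adjusted p = 0.965, 95% interval -0.26 to 0.12). The probe set with the smallest p of the family (1439093_at) read 7.07, 7.37 and 7.10 against 6.99, 6.86 and 6.96. Again the groups did not overlap, with wild type replicate 2 the highest. The difference was -0.24 (SE 0.11, unadjusted p = 0.0469, adjusted p = 0.737), and without wild type replicate 2 it was -0.15 (adjusted p = 0.591). The remaining probe sets of Hspa4l read 0.04, -0.16 and -0.13 (adjusted p = 0.982, 0.935 and 0.925), with overlapping groups. Thus 4 of its 5 probe sets lay below 0 and the other above, and 0 passed.

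**Figure D2:**
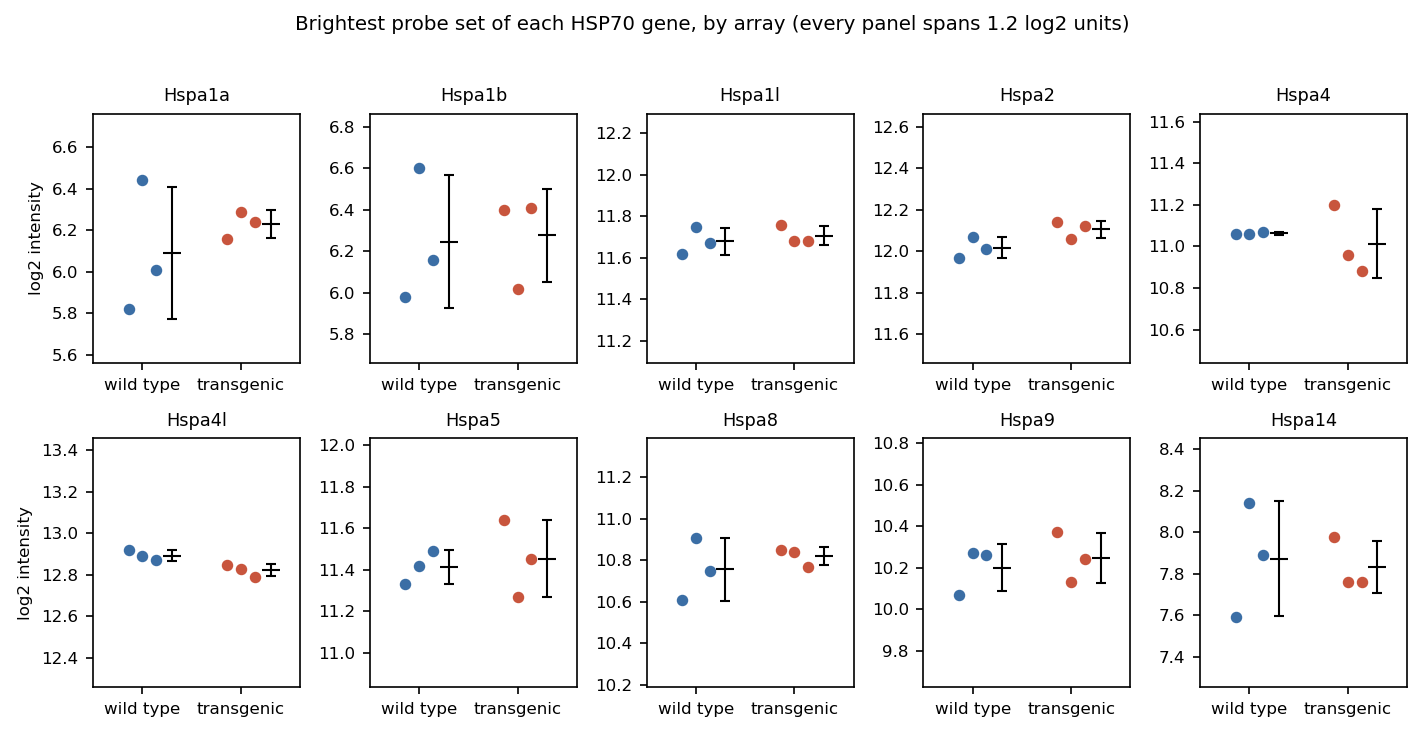
Log2 intensity of the brightest probe set of each of the 10 HSP70 genes in the 3 wild-type (blue) and 3 transgenic (red) arrays, replicates 1 to 3 from left to right, with group mean and SD in black. Each panel spans 1.2 log2 units around its own mean. The groups are apart only for Hspa4l, where transgenic arrays read 12.79 to 12.85 and wild-type arrays 12.87 to 12.92.

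Hspa4 (chromosome 11), the close relative of Hspa4l found in most tissues, read 11.06, 11.06 and 11.07 in wild-type and 11.20, 10.96 and 10.88 in transgenic arrays with its brightest probe set (1416146_at). The wild-type arrays were nearly equal, and the transgenic arrays lay on both sides of them. The difference was -0.05 (SE 0.10, adjusted p = 0.98). All 4 of its probe sets lay below 0, between -0.22 and -0.05, with overlapping groups in each. The lowest of these (1435194_at) read 6.62, 6.43 and 6.50 against 6.52, 6.19 and 6.19 (unadjusted p = 0.0916, adjusted p = 0.824). The widest interval of the family belonged to another (1416147_at), from -0.74 to 0.41. There wild type replicate 1 read 7.27 while the other 5 arrays read 6.03 to 6.46. Leaving that array out turned its difference from -0.16 to 0.18.

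The stress-induced genes Hspa1a and Hspa1b (chromosome 17) encode the same cytosolic protein or nearly so, and rise after heat in most cells. They neighbour each other and Hspa1l in the MHC class III region. The 250 bases before the start sites of Hspa1a, Hspa1b and Hspa1l are printed to show the near-identical pair beside the germ-cell gene next to it. These bases lie before the transcripts, so they do not show whether probes tell Hspa1a from Hspa1b. They come from RefSeq, build GRCm38.p6: chr17:34972157-34972406 on the minus strand for Hspa1a, chr17:34959239-34959488 on the minus strand for Hspa1b and chr17:34972453-34972702 on the plus strand for Hspa1l. Capitals mark GAANNTTC, a pair of inverted heat shock element units that heat shock factors recognise, searched on both strands.
Hspa1a: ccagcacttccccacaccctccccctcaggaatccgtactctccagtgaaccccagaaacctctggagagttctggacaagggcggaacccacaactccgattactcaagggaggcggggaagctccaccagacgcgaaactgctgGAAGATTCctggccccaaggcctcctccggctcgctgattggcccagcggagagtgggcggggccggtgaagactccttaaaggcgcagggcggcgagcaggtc
Hspa1b: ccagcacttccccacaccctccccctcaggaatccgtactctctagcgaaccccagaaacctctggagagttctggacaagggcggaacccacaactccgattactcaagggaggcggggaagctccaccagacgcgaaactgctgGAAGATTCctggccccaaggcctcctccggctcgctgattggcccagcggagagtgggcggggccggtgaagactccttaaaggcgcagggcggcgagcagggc
Hspa1l: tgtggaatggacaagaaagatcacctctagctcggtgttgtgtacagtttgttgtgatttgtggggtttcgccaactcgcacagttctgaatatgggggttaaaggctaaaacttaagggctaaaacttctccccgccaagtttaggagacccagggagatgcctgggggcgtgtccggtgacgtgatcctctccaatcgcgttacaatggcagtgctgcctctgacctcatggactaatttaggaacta
The Hspa1a and Hspa1b stretches were identical at 247 of 250 positions and differed by C44T, T47C and T249G, counted from 1 at the 5' end with the Hspa1a base first. Each held GAANNTTC once, at positions 147 to 154, and Hspa1l held none. Among the 8 members with a RefSeq promoter entry, 2 held it, as did 6.69% of all 32851 windows of that length.

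Hspa1a (1452388_at) read 5.82, 6.44 and 6.01 in wild-type and 6.16, 6.29 and 6.24 in transgenic arrays. Wild type replicate 2 was the highest of all 6 arrays, and the other wild-type arrays were the lowest. The difference was 0.14 (SE 0.15, adjusted p = 0.958, 95% interval -0.19 to 0.47). Without wild type replicate 2 it was 0.32 (95% interval 0.09 to 0.54, unadjusted p = 0.0109, adjusted p = 0.245), the smallest adjusted p among the members in that fit. Dropping the highest reading, a wild-type one, could only raise the difference. Without wild type replicate 1 it was 0.01 (adjusted p = 0.996), and leaving out any 1 array gave 0.01 to 0.32. The brightest Hspa1b probe set (1427127_x_at) read 5.98, 6.60 and 6.16 against 6.40, 6.02 and 6.41, again with wild type replicate 2 on top. Its difference was 0.03 (adjusted p = 0.993) with that array and 0.21 (adjusted p = 0.598) without it. Of the remaining Hspa1b probe sets, 1452318_a_at differed by 0.13 and 1427126_at by -0.23 (adjusted p = 0.929 and 0.915), so the gene's signs were mixed. Because the annotation gives these probe sets to copies that share nearly all their sequence, the values of Hspa1a and Hspa1b are uncertain between them. None of them was brighter than 6.60 in any array, and no detection call exists to say whether such readings lie above background. Immediate early genes, which rise with handling and stress, had 11 members in 13 probe sets with a median of 0.07 and 0 calls. Egr1 was lowest in p among them, at 6.46, 6.51 and 6.32 in wild-type and 6.69, 6.89 and 6.79 in transgenic arrays (0.36, adjusted p = 0.3), and Btg2 read 0.21 (adjusted p = 0.802).

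**Figure D3:**
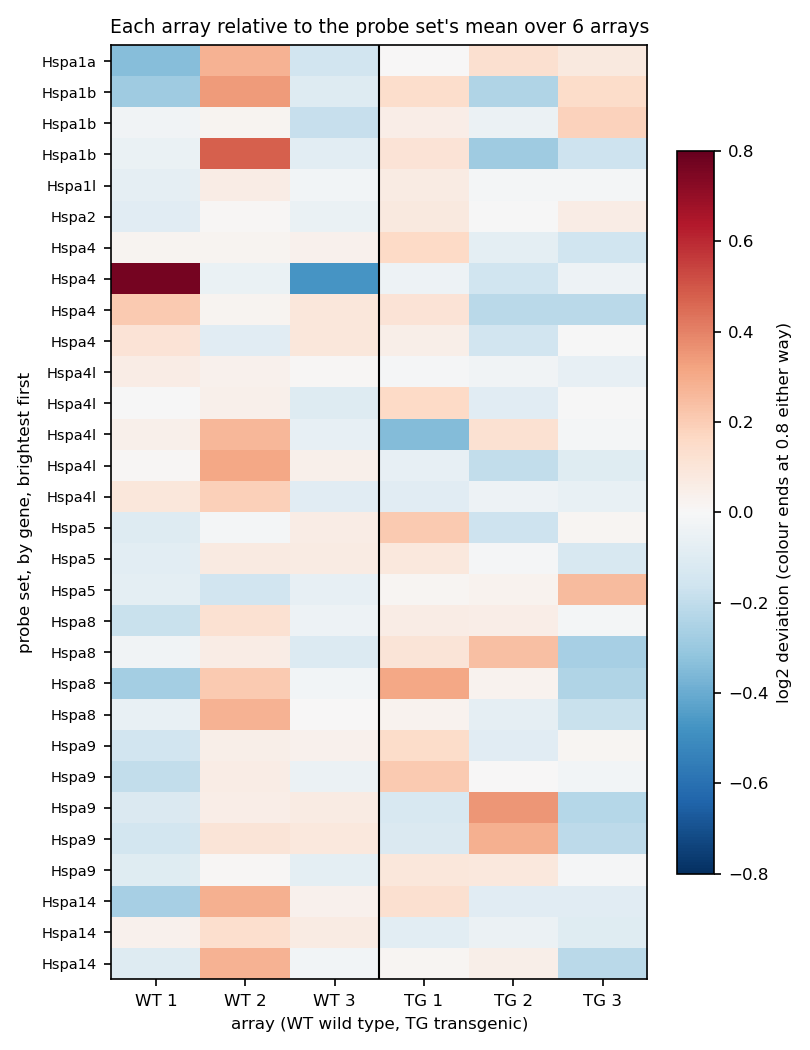
Deviation of each array from the mean of its probe set over all 6 arrays, in log2 units (colour), for the 30 HSP70 probe sets (rows, grouped by gene) in the wild-type (WT) and transgenic (TG) arrays (columns). Red is above and blue below the mean. The column of wild type replicate 2 is the highest of the wild-type columns in 22 of the 30 rows.

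Hspa8 (chromosome 9), the constitutive cytosolic HSC70 of all cells, has 4 probe sets. The brightest (1420623_x_at) read 10.61, 10.91 and 10.75 in wild-type and 10.85, 10.84 and 10.77 in transgenic arrays. The transgenic arrays fell inside the wild-type range. The difference was 0.06 (SE 0.10, adjusted p = 0.974, 95% interval -0.16 to 0.29). Its other probe sets read 0.05, 0.06 and -0.15, the last at the dim level of 4.41 ± 0.18 and 4.27 ± 0.11 (SD, n = 3; adjusted p = 0.985, 0.986 and 0.926). With the Gapdh reading of each array as a covariate the third of the 4 (1420622_a_at) moved from 0.06 to 0.79 (unadjusted p = 0.000994, adjusted p = 0.217). Names ending in _x_at or _a_at, as 3 of the 4 do, mark probe sets that can match several transcripts.

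Hspa5 (chromosome 2) encodes BiP, the HSP70 of the endoplasmic reticulum and a marker of the unfolded protein response. Its upstream stretch (chr2:34771840-34772089, plus strand, RefSeq, GRCm38.p6) is printed because it carries the ER stress response element, by which that response is known to act, in capitals. It was searched as its exact letters, CCAAT and CCACG with any 9 bases between, on both strands.
Hspa5: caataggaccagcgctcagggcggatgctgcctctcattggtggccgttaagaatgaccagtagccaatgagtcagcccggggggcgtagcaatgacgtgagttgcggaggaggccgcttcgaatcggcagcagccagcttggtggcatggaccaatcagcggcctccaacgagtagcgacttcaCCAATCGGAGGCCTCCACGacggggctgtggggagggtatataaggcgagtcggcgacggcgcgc
The motif stood once, at positions 186 to 204, in 1 of the 8 member windows and in 0.113% of all windows. The brightest Hspa5 probe set (1416064_a_at) read 11.33, 11.42 and 11.49 in wild-type and 11.64, 11.27 and 11.45 in transgenic arrays. The highest and the lowest reading were both transgenic. The difference was 0.04 (SE 0.11, adjusted p = 0.986, 95% interval -0.21 to 0.29). The second read -0.03 (adjusted p = 0.987). The dimmest (1447824_x_at) read 8.79, 8.71 and 8.80 against 8.88, 8.89 and 9.12, with every transgenic array above every wild-type array. Its difference of 0.20 had an unadjusted p of 0.0755 and an adjusted p of 0.799. Of the 38 probe sets for 17 genes of the unfolded protein response, 0 were called in either direction, 2 had an unadjusted p under 0.05 (6.69% of all probe sets did) and the median was -0.02. Sdf2l1, an ER stress gene, read 0.47 (adjusted p = 0.746) and a dim probe set of Pdia6, a disulfide isomerase, 0.28 (adjusted p = 0.659). The brighter probe set of Pdia6 had the opposite sign, at -0.18 with every transgenic array below every wild-type array (unadjusted p = 0.0657, adjusted p = 0.784).

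Hspa9 (chromosome 18), or mortalin, draws proteins into mitochondria and helps to build iron-sulfur clusters. Its brightest probe set (1418504_at) read 10.07, 10.27 and 10.26 in wild-type and 10.37, 10.13 and 10.24 in transgenic arrays. The groups overlapped, with a mean difference of 0.05 (limma SE 0.10, adjusted p = 0.982) and a 95% interval from -0.18 to 0.28. The other 4 read 0.13, 0.00, -0.03 and 0.11, with adjusted p of 0.929 or more. Its import and iron-sulfur partners, 11 measured genes in 19 probe sets, lay above 0 in 15 with a median of 0.04, and 0 were called. Nfs1, the cysteine desulfurase, read 0.25 (adjusted p = 0.715). Timm50, an import receptor, read 0.32 with its dimmest probe set (adjusted p = 0.741). Its brighter probe sets read 0.09 and 0.07 (adjusted p = 0.965 and 0.978).

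Hspa14 (chromosome 2) is an atypical HSP70 that works with the J-domain protein DNAJC2 on the ribosome, where the pair attends to newly made chains. Its brightest probe set (1448586_at) read 7.59, 8.14 and 7.89 in wild-type and 7.98, 7.76 and 7.76 in transgenic arrays. The transgenic arrays lay inside the wild-type range, with a difference of -0.04 (SE 0.14, adjusted p = 0.989). The second (1439826_at) read 6.58, 6.68 and 6.61 against 6.46, 6.50 and 6.45. Here the groups did not overlap, and the difference of -0.15 had an adjusted p of 0.836. The dimmest read -0.10 (adjusted p = 0.965), so all 3 lay below 0. Dnajc2 gave the smallest p of all the genes in the partner lists, with the opposite sign. Its dim probe set (1454219_at) read 5.37, 5.85 and 5.50 in wild-type and 6.27, 6.25 and 6.24 in transgenic arrays. Every transgenic array lay above every wild-type array, with a difference of 0.68 (SE 0.12, unadjusted p = 0.000385, adjusted p = 0.0687). Its brightest (1417657_s_at) read 10.53, 10.41 and 10.45 against 10.78, 10.74 and 10.77, a difference of 0.30 (adjusted p = 0.342). The next (1448794_s_at) read 9.13, 9.32 and 9.30 against 9.56, 9.57 and 9.61, a difference of 0.33 (adjusted p = 0.318). In these 3 the groups were apart, while the fourth, a dim one (1425910_at), read -0.01 (adjusted p = 0.995). None of the 4 passed over all arrays. Without wild type replicate 2 the first of them did, at 0.82 (adjusted p = 0.00315). That fit called 429 of all probe sets, against 200 with every array. Leaving out any 1 array gave 0.58 to 0.82 for this probe set, with adjusted p from 0.00315 to 0.321. The difference between Hspa14 and Dnajc2 in their response was not tested.

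**Figure D4:**
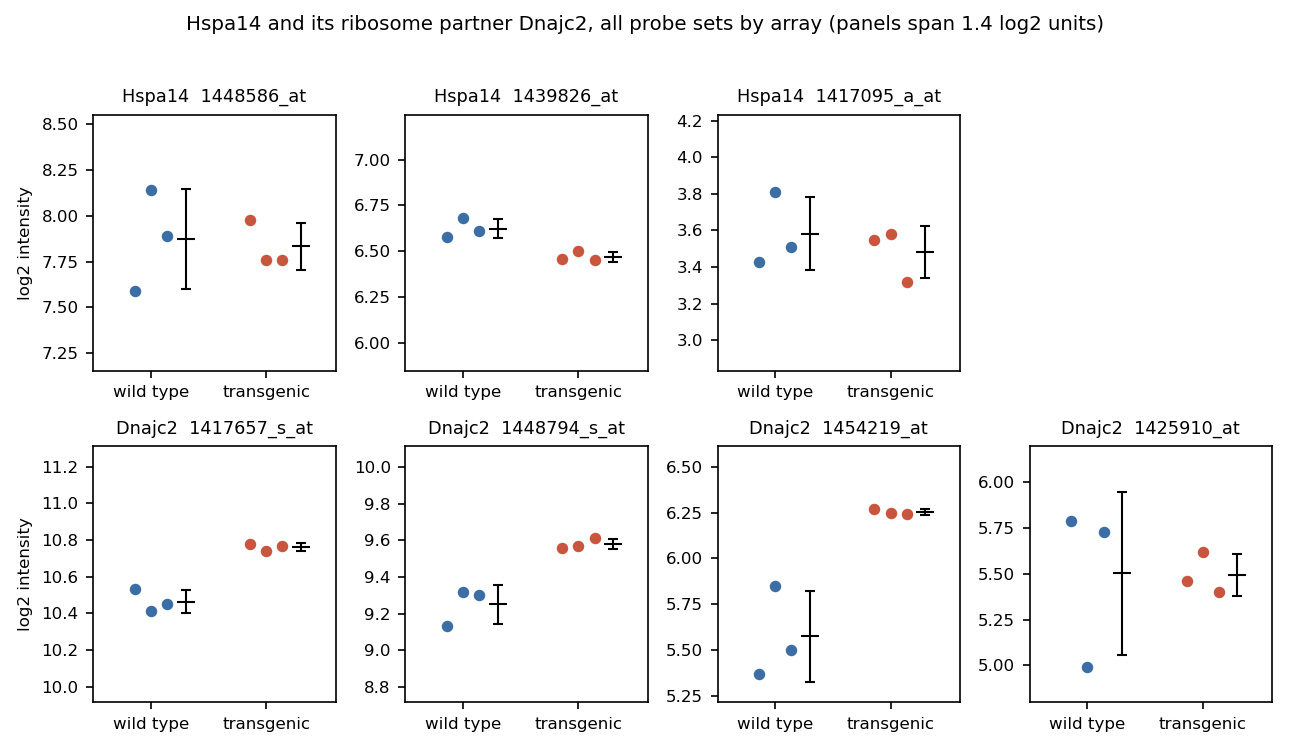
Log2 intensity of the 3 probe sets of Hspa14 (top) and the 4 of Dnajc2 (bottom) in wild-type (blue) and transgenic (red) arrays, replicates 1 to 3 from left to right, with group mean and SD in black; each panel spans 1.4 log2 units. Hspa14 differed by -0.04, -0.15 and -0.10, and Dnajc2 by 0.30, 0.33, 0.68 and -0.01, from left to right.

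The same windows of 250 bases end before the start site, so later bases were not searched. In them the motif GTCA, the core of the DNA element that DREAM binds, was searched on both strands. It was present in 6 of the 8, all but those of Hspa1a and Hspa1b, and in 80.2% of all windows, a share of the same order. It occurred 3 times before Hspa4 and Hspa5, 2 times before Hspa1l, Hspa2 and Hspa14 and 1 time before Hspa4l. The tail-to-tail heat shock pair TTCNNGAA and the cyclic AMP response element TGACGTCA, which contains GTCA, were in 0 of the 8 (7.17% and 1.55% of all windows). The TATA box, searched only as the letters TATAAA, was also in 0 of the 8 (12.4% of all windows). Near forms, such as TATATAAG in the Hspa5 stretch, were not counted. The windows of Hspa2 and Hspa4l overlap the annotated spans of their own genes. Hspa8 and Hspa9 were not analysed here for motifs.

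Wild type replicate 2 read highest of the wild-type arrays in 22 of the 30 HSP70 probe sets (73.3%, against 40.3% of all probe sets), and highest of all 6 arrays in 11 (36.7%, against 22.6%). Its values were also spread widest, with a lower quartile of 4.71 (4.77 to 4.84 in the other arrays). Its upper quartile was 7.63 (7.47 to 7.57 in the others). The 40.3% and 22.6% cover bright and dim probe sets together. The shares among probe sets as bright as the members were not analysed. For Hspa1a wild type replicate 2 exceeded the mean of the other wild-type arrays by 0.53, and for Hspa1b by 0.53, 0.13 and 0.55. For the brightest probe set it did so by 0.40 for Hspa14 and 0.23 for Hspa8, but by 0.08 for Hspa2, 0.11 for Hspa1l and 0.00 for Hspa4l. Without it 0 of the 30 passed and 1, Hspa1a, had an unadjusted p under 0.05. In that fit 429 of all 45037 probe sets passed, against 200 with every array. The share of all at an unadjusted p under 0.05 was not analysed for it.

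The wider chaperone network was followed through 11 lists with 116 measured genes in 225 probe sets. Of these 0 were called, 19 had an unadjusted p under 0.05 (8.44%, against 6.69% of all) and 24 had groups that did not overlap (10.7%, against 11.3%). The 21 DNAJ genes, in 49 probe sets, had a median of 0.02, with 4 higher and 1 lower at an unadjusted p under 0.05 (3.75% and 2.94% of all probe sets). Of the 4, all but 1 (Dnajb14) are probe sets of Dnajc2. Dnajb3 and Dnajb13, J-domain proteins of spermatids and the sperm tail, read 0.00 and 0.00 with theirs (adjusted p = 0.995 and 1). Among 12 nucleotide exchange factors in 19 probe sets, the median was 0.01. Hyou1, an ER relative of HSP70 that serves BiP, had its smallest p at 7.83, 7.62 and 7.71 in wild-type and 7.41, 7.38 and 7.44 in transgenic arrays. All wild-type arrays were above all transgenic arrays (-0.31, adjusted p = 0.377). Its other probe sets read -0.22 and -0.42 (adjusted p = 0.692 and 0.825). Hspa12a, a distant HSP70 relative, read 0.38 and 0.15 with the probe sets of smallest p (adjusted p = 0.266 and 0.873), in a list of 9 probe sets with a median of 0.09.

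Heat shock factors and their binders, 6 measured genes in 9 probe sets, had a median of 0.00. Hsf2bp, which acts in meiotic recombination, read 0.21 and -0.18 with its probe sets (adjusted p = 0.713 and 0.909). Hsfy2, a testis relative of the heat shock factors, read -0.21 (adjusted p = 0.756). Hsf1 has no probe set of its own alone here, so the main heat shock factor was not analysed. HSP90 and the factors that pass clients to it from HSP70, 12 measured genes in 31 probe sets, had a median of 0.03. Fkbp5, an HSP90-bound immunophilin, read 0.31 and 0.25, and -0.05 with its dimmest probe set (adjusted p = 0.597, 0.725 and 0.978). Small heat shock proteins and HSP60, 10 genes in 18 probe sets, had a median of 0.03 and 0 at an unadjusted p under 0.05. The lowest p values there were those of Hspb7, at -0.32 and -0.47 (adjusted p = 0.759 and 0.795).

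Reported partners and clients of HSPA2, 11 measured genes in 16 probe sets, had a median of -0.02 with 5 above 0. Sycp1, a protein of the synaptonemal complex that is also among the spermatocyte markers, read 9.70, 9.20 and 9.40 in wild-type and 8.87, 9.20 and 9.01 in transgenic arrays. Wild type replicate 2 and transgenic replicate 2 read alike to 2 decimals, and the difference was -0.41 (adjusted p = 0.541). Spam1, a sperm hyaluronidase, read -0.18 (adjusted p = 0.861). Bag6, which stabilises HSPA2 in germ cells, read 0.01 (adjusted p = 0.995). The genes around the Hspa1 locus, 9 measured in 13 probe sets, had a median of 0.05. Msh5, of meiotic crossing over, read -0.30 and Lsm2, an RNA-binding protein gene beside Hspa1l, 0.24 (adjusted p = 0.713 and 0.868).

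**Figure D5:**
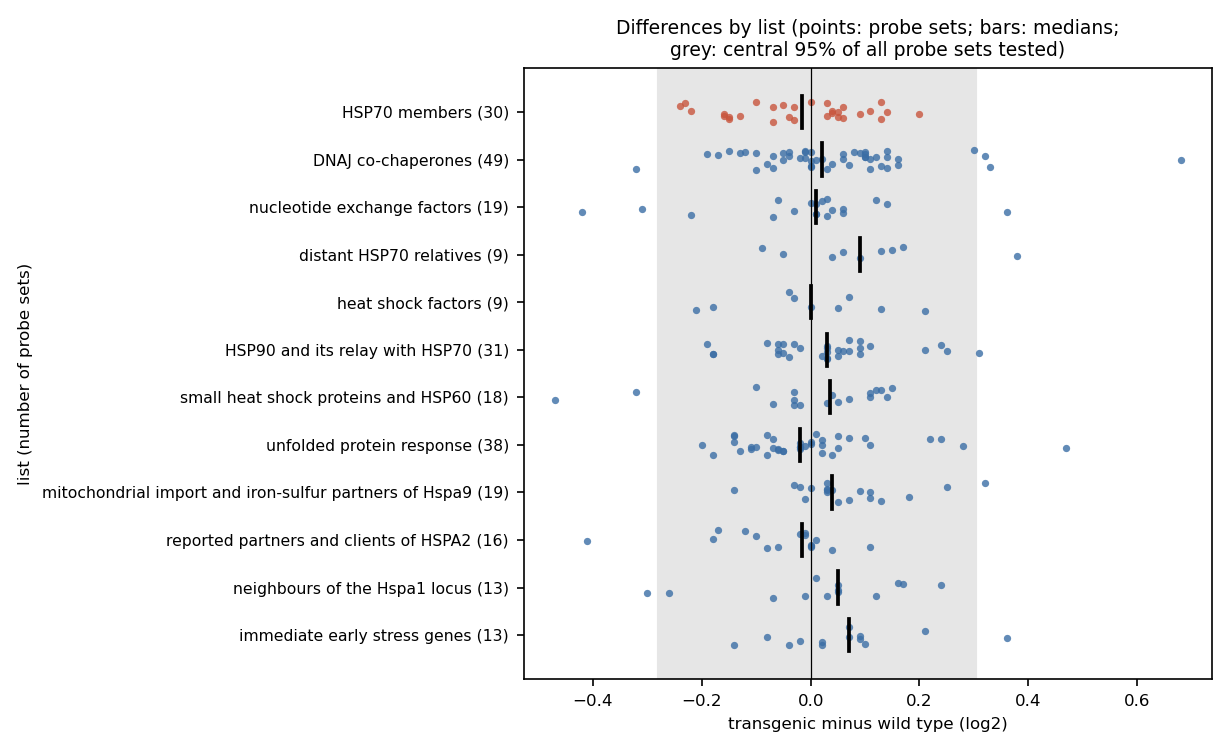
Difference between transgenic and wild-type testis in log2 units (horizontal axis) for the probe sets of the HSP70 family (red) and of 11 lists of partner genes (blue), with list medians as black bars. The grey band holds the central 95% of all 45037 probe sets. List medians lie between -0.02 and 0.09, and the point farthest to the right is Dnajc2 at 0.68.

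Markers of the other cells of the testis were followed for comparison. Of 12 marker lists, calls were made in the Leydig list, where Hsd3b1, a steroid synthesis enzyme, rose by 1.48 (adjusted p = 0.00109), and in the epididymal list, where Spink8, a protease inhibitor gene, fell by 1.46 (adjusted p = 0.0188). Leaving out any 1 transgenic array ended the Spink8 call (adjusted p = 0.127 to 0.136). The medians of the spermatogonia, elongating spermatid and Sertoli lists were 0.03, -0.01 and -0.02. Those of Leydig cells, myoid cells and leukocytes were 0.11, 0.01 and 0.14. Endothelial, epididymal, adipose and erythroid genes had medians of 0.19, 0.04, 0.15 and -0.01. The mean level per array did not overlap between the groups in 6 of the 12 lists. For single probe sets that share was 11.3% of all, and the share expected for list means was not analysed here. Leydig markers averaged 9.19 to 9.49 in wild-type and 9.71 to 9.88 in transgenic arrays. Beside Hsd3b1, Hsd17b3 read 0.91 (adjusted p = 0.146), while the brightest probe sets of Cyp17a1, Cyp11a1 and Star read 0.03, -0.06 and 0.01. In the same order, leukocyte markers averaged 6.22 to 6.37 and 6.44 to 6.51, and endothelial markers 5.50 to 5.59 and 5.68 to 5.72. Adipose markers averaged 6.40 to 6.73 and 6.77 to 7.06. The mean levels of spermatocyte markers, given above, and of epididymal markers (5.63 to 5.97 and 5.47 to 5.55) were lower in the transgenic arrays. Of the 7 epididymal probe sets, 4 lay above 0 and 3 below, with Spink8 and Rnase10 (-0.60, adjusted p = 0.0647) the lowest. The part of these marker levels in the HSP70 values was not tested.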

How the data were processed

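Per the labels' protocols, RNA was extracted with TRIzol and a column kit and biotin-labelled cRNA was hybridised to the arrays. The authors deposited log2 values per probe set, and the submitters' processing notes name RMA and affy but no version or settings. RMA gives the arrays a near-common distribution and no detection call. The depth of an array is not a count, so the number of arrays limits the precision. Genes were named from the platform annotation (34945 probe sets with 1 gene, 932 with several, 9160 with none), updated through RefSeq (GRCm38.p6), which matched 34741.

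All 45037 non-control probe sets were fitted in 1 model by limma 3.58.1 (R 4.3.3), through lmFit and eBayes with two-sided tests and Benjamini-Hochberg adjustment over all of them. The genome build of the arrays is not given in the sources used here. The members and lists were chosen with earlier results of these data known. Every member was named with all its probe sets. The mean level of a list in an array was taken over the brightest probe set of each gene. In each partner list the 2 probe sets of smallest p were named where 0 passed, and in marker lists those that passed. Dnajb3, Dnajb13, Dnajb14, Bag6 and the other probe sets of Dnajc2, Hyou1, Pdia6, Hsf2bp and Fkbp5 were named after their values were seen. So were the other probe sets of Timm50 and the markers Hsd17b3, Cyp17a1, Cyp11a1, Star and Rnase10. The alternatives were 2 filters on dim probe sets, 2 normalizations, 2 variance or weight models, a replicate block, an RNA integrity covariate, leaving out each array or probe set class, averaging probe sets and a looser threshold.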

Additional observations from a re-analysis of the deposited data

How the results depend on the processing

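The count of 0 called HSP70 probe sets held under every alternative run, with the smallest adjusted p at 0.19 with array weights, at 0.217 with the Gapdh difference as a covariate and at 0.245 without wild type replicate 2. The array weights were estimated gene by gene, since the default estimate did not converge, and gave wild type replicate 3 a weight of 4.7. The cause of the changes below was not tested.

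Over all probe sets the count of 200 went to 306 with trend and robust eBayes, 1058 with array weights, 117 with the replicate block, 18 with the Gapdh difference as a covariate and 317 at an adjusted p under 0.1. Leaving out 1 array gave 70 to 429. The partner lists went from 0 to 4 calls with array weights (Dnajc2 at 0.75 and 0.31, Hspa12a at 0.47 and Egr1 at 0.44), to 1 at the looser threshold and to 0 to 1 without an array. Same-numbered arrays did not deviate together (correlations of -0.32, -0.07 and -0.01), so the numbers were not taken to pair the samples. With the replicate block the smallest adjusted p of a member was 0.995 and 0 passed.

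The Gapdh covariate moved the members most. Its values did not overlap between the groups, so that fit can hardly tell covariate from group. The members' median went from -0.01 to 0.22, and the median over all probe sets from 0.02 to -0.016. Of the members, 21 of 30 lay above 0 and 3 had an unadjusted p under 0.05. The shares of all probe sets in that fit were not analysed here. Standard errors grew, from 0.08 to 0.16 for Hspa2 and from 0.26 to 0.48 for Hspa4 (1416147_at). The members' differences there ran from -0.70 to 0.79, the highest that of Hspa8 (1420622_a_at). Signs turned, also of differences among the family's largest. With that covariate Hspa1b (1427126_at) read 0.30, Hspa4 (1416146_at) 0.19, Hspa5 0.23 (1427464_s_at) and -0.05 (1447824_x_at), Hspa8 (1431182_at) 0.23, Hspa9 (1453811_at) 0.24 and Hspa14 0.47 (1448586_at) and 0.33 (1417095_a_at). Among partners, Hspb7 read 0.01 and 0.34, Spam1 0.06 and Btg2 -0.08 there. The dim probe sets of Pdia6 and Timm50 named above read -0.01 and -0.02. With array weights Hspa4 (1416147_at) read 0.23 and Hspa5 (1416064_a_at) -0.01. Averaged over its probe sets, Hspa1b read -0.02.

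Leaving out 1 array turned signs within these ranges: Hspa1b (1427127_x_at) -0.10 to 0.21, Hspa1l 0.00 to 0.06, Hspa4 -0.14 to 0.02 (1416146_at) and -0.44 to 0.18 (1416147_at), and Hspa4l (1449010_at) -0.02 to 0.10. Hspa5 ran from -0.05 to 0.13 (1416064_a_at) and from -0.08 to 0.02 (1427464_s_at). Hspa8 ran from -0.01 to 0.14 (1420623_x_at), -0.06 to 0.20 (1455789_x_at) and -0.08 to 0.20 (1420622_a_at). Hspa9 ran from -0.02 to 0.10 (1418504_at) and -0.18 to 0.07 (1453811_at), Hspa14 from -0.18 to 0.09 (1448586_at) and -0.18 to 0.01 (1417095_a_at), and Dnajc2 (1425910_at) from -0.27 to 0.13. Hspa2 kept its sign, at 0.07 to 0.12. The median size of the members' differences was 0.08, beside a median replicate SD of 0.13 (log2). Over all probe sets these were 0.08 and 0.13. With 3 arrays per group, no member difference passed the threshold.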
